A study of Mus musculus with 11 samples.

Results

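The CD antigen genes described here are the 22 genes, of 754 on a NanoString myeloid panel, whose symbol is Cd followed by a number. The cell division genes (Cdc and Cdk symbols) were set aside, and so were 7 CD genes that belong to antigen presentation, costimulation or scavenging (Cd74, Cd80, Cd86, Cd40, Cd14, Cd163 and Cd36). Of the 22 genes, 11 were above the detection floor in at least 1 mouse and 11 were at the floor in every mouse. Of the whole panel, 309 genes never rose above the floor.

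The cluster of differentiation numbers were given to leukocyte surface molecules in the order in which antibodies defined them, so a shared number series says nothing about shared function. On macrophages these molecules include enzymes, receptors that tune Toll-like receptor signalling, homophilic adhesion receptors and ligands that restrain other immune cells. Interleukin-4, delivered with an antibody that prolongs its life (IL-4c), drives resident peritoneal macrophages to divide and to take up an alternatively activated state, in which RELMα is among the most strongly induced proteins.

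The study asked what RELMα does in that response. It compared Rα+/+ mice with RαTd/Td mice, in which part of Retnla, the gene for RELMα, was replaced by a TdTomato reporter with the help of a ubiquitous Cre deleter line, so the loss was not limited to macrophages. All mice were female, 6 to 8 weeks old and of the strain given as C57BI/6, and received PBS or IL-4c into the peritoneum on days 0 and 2, with F4/80+CD11b+ peritoneal macrophages sorted on day 4. PBS went to Rα+/+ mice 1 and 2 and to RαTd/Td mice 3 and 4, and IL-4c to Rα+/+ mice 5, 6 and 7 and to RαTd/Td mice 9, 10, 11 and 12.

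Values are counts that the authors normalized to housekeeping genes, with low values replaced by 30, and are called normalized counts below. Once the factor of each lane was divided out, the counts above the floor added up to between 268858 and 574505 per mouse. The lowest value seen above the floor ranged from 30.5 to 56.3 normalized counts across the mice. A gene at the floor thus has an upper limit and no level. The comparisons were made with limma on log2(value + 1) over 445 genes, and a gene is called where its Benjamini-Hochberg adjusted p was 0.05 or less. Fold changes of genes near the floor depend on the floor and on the 1 added.

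Retnla was read first as a check of the genotypes. Among Rα+/+ mice, PBS left it at 4631 (mouse 1) and 4141 (mouse 2) normalized counts, and after IL-4c it was at 115675, 147349 and 171588 in mice 5, 6 and 7. It was at the floor in all 6 RαTd/Td mice, so each mouse carried the transcript that its label calls for.

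The macrophage label was read from markers. Of 12 large peritoneal macrophage markers listed, 6 were on the panel and all 6 were above the floor in at least 1 mouse, Itgam (CD11b) being the most abundant. Their sum was 24102, 23297, 24668 and 25151 normalized counts in mice 1 to 4, 21961, 21595 and 23242 in mice 5 to 7, and 22467, 25690, 26837 and 20528 in mice 9 to 12. Adgre1, which encodes F4/80, was between 5897 and 10617 in all mice. Itgam and Adgre1 encode the proteins on which the cells were sorted, so their values are not a separate check of the label. Itgam and Adgre1 carried most of the sum, and Timd4 (log2 fold changes with IL-4c of -1.48 and -1.61 in Rα+/+ and RαTd/Td mice), Mertk (-1.08 and -0.93) and Csf1r (-0.97 and -0.98) of the same list were called lower by limma. Adgre1 was called higher in Rα+/+ mice (0.50), and Gata6 was not called (-0.003 and -0.06).

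All 4 T cell antigens of the set were at the floor in every mouse, namely Cd247, the zeta chain of the T cell receptor complex, Cd27, Cd28 and Cd40lg. A wider list of 20 T cell markers had 6 genes on the panel, these 4 with Icos and Ctla4, and its sum above the floor was 0 in every mouse. The activation antigens Cd69, Cd70 and Cd83 were at the floor, as were the adhesion receptor Cd44, the progenitor and endothelial antigen Cd34, the B7 family member Cd276 and the lipid-presenting Cd1d2. For each of these genes the value lay under 56.3 normalized counts in the least sensitive lane and under 30.5 in the most sensitive, and no lower limit can be read from the table.

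Markers of other cells were read in the same way. All 6 eosinophil markers of the list were on the panel and at the floor in every mouse, Siglecf and Epx among them. Of 6 mast cell markers, Cpa3 was above the floor in mouse 1 at 48.2, and Kit, Fcer1a, Ms4a2, Cma1 and Tpsb2 were at the floor in every mouse. Of 11 B cell markers 2 were on the panel. Ms4a1 (CD20) was at 104.5, 226 and 192 normalized counts in mice 1 to 3 and at 242 in mouse 4, at the floor in 6 of the 7 IL-4c-treated mice, and at 63.1 in mouse 12, while Fcer2a (CD23) was at the floor throughout. The B cell signal was thus present after PBS and at or near the floor after IL-4c. In bulk samples of this kind, fewer cells of a type and less RNA per cell cannot be told apart.

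**Figure D1:**
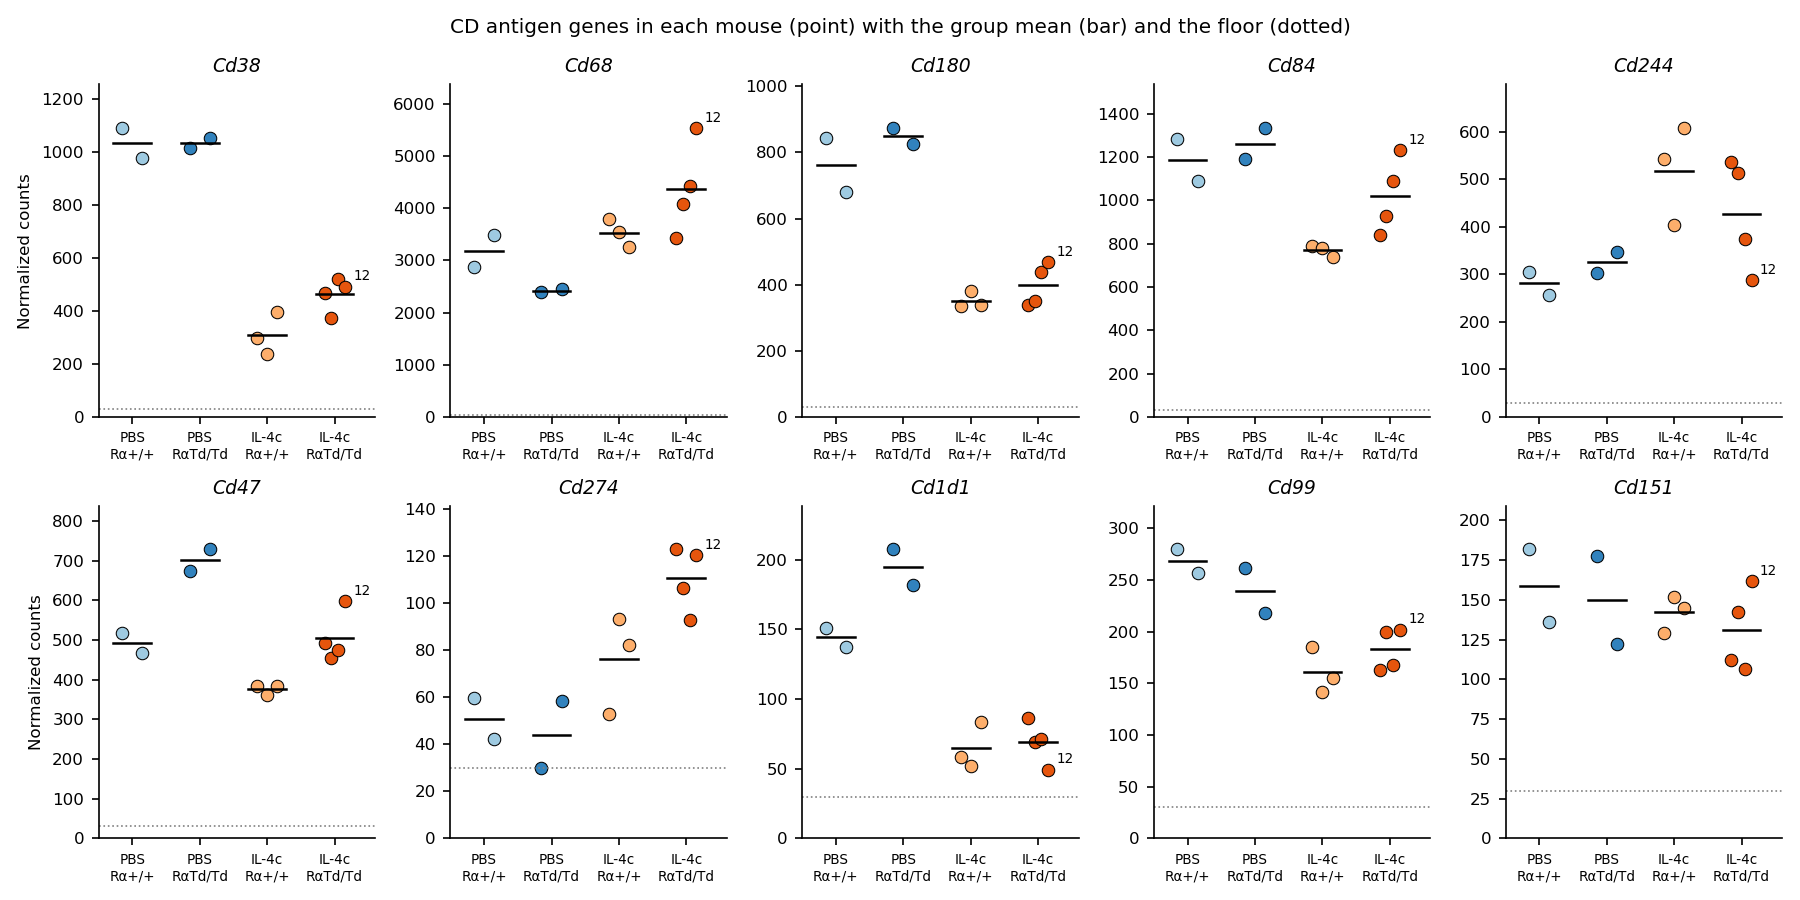
Normalized counts (linear y axis from 0) of 10 detected CD antigen genes in each mouse, grouped on the x axis by treatment and genotype. Points are mice (the point of mouse 12 carries its number), bars are group means, and the dotted line is the floor of 30. Cd38 and Cd180 were lower in all 7 IL-4c-treated mice than in all 4 PBS-treated mice.

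In Rα+/+ mice limma called 7 of the 11, against 46.3% of all genes tested. Of the 7, 6 were lower (background 32.4%) and 1 was higher (background 13.9%). With median centring or quantile normalization the calls were 4 lower and 2 higher. Without mouse 1 they were 4 lower and 0 higher, beside 97 lower and 50 higher of all 444 genes tested then. In RαTd/Td mice it called 6 of the 11, against 51.9% of all genes tested, with 4 lower (background 36.6%) and 2 higher (background 15.3%). With median centring or quantile normalization the 6 became 5 (3 lower, 2 higher). The count also fell without mouse 3 and without mouse 4, as the calls over all genes did. Each of these fits leaves 1 PBS-treated RαTd/Td mouse. The median log2 fold change of the 11 was -0.38 in Rα+/+ mice beside -0.18 over all 445 genes, and -0.32 in RαTd/Td mice beside -0.23. Cd38, Cd180, Cd1d1 and Cd47 were called lower in both genotypes. The comparisons have no mouse in common, but both came from a single fit whose spread was shared over all 11 mice. How many of all genes were called lower in both was not counted. Cd84 and Cd99 were called lower and Cd244 higher in Rα+/+ mice, and Cd68 and Cd274 were called higher in RαTd/Td mice, with the differences between the genotypes tested further on.

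The balance of higher and lower calls on this panel depends on the scale. Over all genes limma called 62 higher and 144 lower in Rα+/+ mice on the scale of the authors, 106 and 92 once every mouse was centred on its median, and quantile normalization gave 104 and 107. In RαTd/Td mice their scale gave 68 higher and 163 lower, centring gave 104 and 110, and quantile normalization gave 89 and 109. The median log2 fold change of all genes, -0.18 in Rα+/+ and -0.23 in RαTd/Td mice, became 0.12 and 0.03 with centring and 0 in both with quantile normalization. Relative to those shifts Cd38, Cd180 and Cd99 were still called lower in Rα+/+ mice, and Cd38, Cd180 and Cd1d1 in RαTd/Td mice. The positive controls, synthetic targets added to every lane, had a geometric mean of 853 to 1021 counts after PBS and of 301 to 624 counts after IL-4c. Their part in the IL-4c comparisons was not tested.

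**Figure D2:**
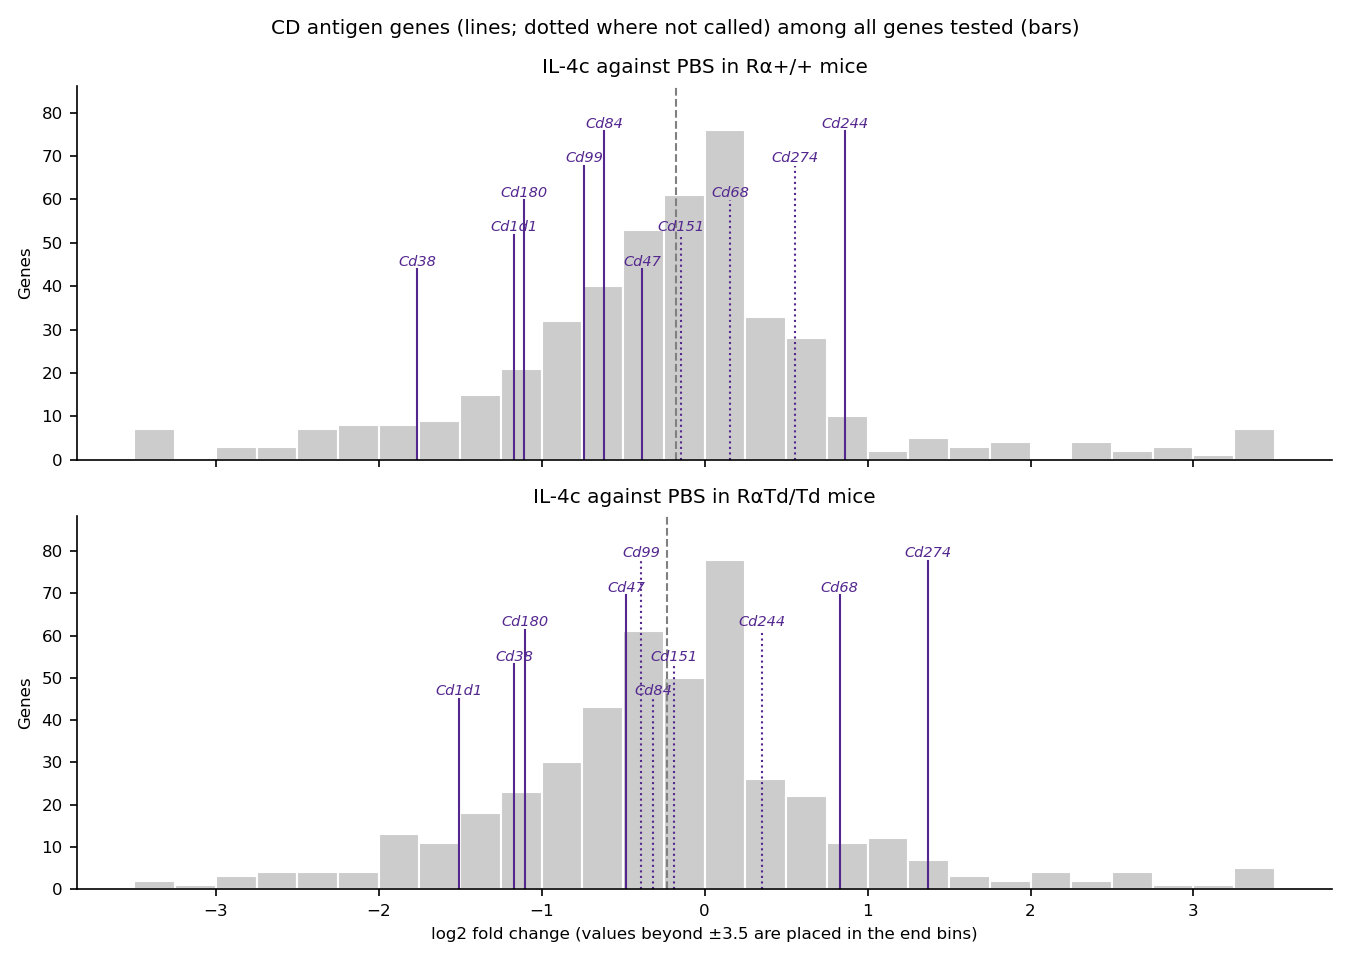
Histogram of the log2 fold changes (x axis) of the 445 genes tested, IL-4c against PBS, with the number of genes on the y axis, in Rα+/+ mice (top) and RαTd/Td mice (bottom). Lines mark 10 CD antigen genes, solid where called and dotted where not, at heights set only to keep the names apart, and the dashed line is the median of all genes, -0.18 and -0.23. The antigens lie on both sides of the median.

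Cd38, an ectoenzyme that consumes NAD and is used as a marker of inflammatory macrophages, had the largest fall of the detected antigens in Rα+/+ mice. PBS-treated mice 1 and 2 had 1092 and 978 normalized counts, and mice 3 and 4 had 1015 and 1054. After IL-4c it was at 298, 238 and 396 in mice 5 to 7 and at 467, 372, 521 and 492 in mice 9 to 12. Every IL-4c-treated mouse lay below every PBS-treated mouse, and of the treated mice only mouse 7 of the Rα+/+ group reached the range of the RαTd/Td group. With IL-4c it changed by -1.76 log2 units in Rα+/+ mice (SE 0.21, adjusted p = 0.000136 from limma) and -1.17 in RαTd/Td mice (SE 0.20, adjusted p = 0.00103). The difference between these responses was 0.59 (SE 0.29, adjusted p = 0.361), which was not called.

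Cd68, a heavily glycosylated protein of late endosomes and lysosomes that marks the macrophage lineage, was at 2878 and 3480 in mice 1 and 2 and at 2394 and 2449 in mice 3 and 4. After IL-4c it was at 3801, 3543 and 3253 in mice 5 to 7 and at 3421, 4077, 4418 and 5543 in mice 9 to 12. The Rα+/+ groups overlapped, whereas all 4 treated RαTd/Td mice lay above both of their PBS-treated counterparts. The log2 fold change was 0.83 in RαTd/Td mice (SE 0.18, adjusted p = 0.00364 from limma) and 0.16 in Rα+/+ mice (SE 0.19, adjusted p = 0.545). The difference between the genotypes in the response was 0.67 (95% confidence interval 0.09 to 1.25), with an unadjusted p of 0.0272 from limma that came to 0.225 after adjustment. The genotypes were not called apart after either treatment (log2 fold changes -0.39 after PBS and 0.29 after IL-4c, adjusted p = 0.300 and 0.304 from limma). The mean after PBS was 3179 ± 426 (SD, n = 2) in Rα+/+ mice and 2421 ± 38.9 (SD, n = 2) in RαTd/Td mice.

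Cd180 encodes RP105, a relative of Toll-like receptor 4 that lacks its signalling domain and restrains it in myeloid cells. It was at 844, 680, 875 and 824 normalized counts in mice 1 to 4. Treated, it stood at 334, 382 and 339 in mice 5 to 7 and at 338, 351, 440 and 468 in mice 9 to 12. No treated mouse reached the PBS range. Its log2 fold change was -1.11 in Rα+/+ mice (SE 0.17, adjusted p = 0.000578 from limma) and -1.10 in RαTd/Td mice (SE 0.16, adjusted p = 0.000422), and the difference between them was 0.01 (95% confidence interval -0.51 to 0.53). Tlr4 itself was not called in either genotype (log2 fold changes 0.35 and -0.17), and Tlr2 was called lower in both (-2.05 and -1.91). Cd180 is also a B cell antigen, and Ms4a1 was called lower in the same mice (-2.32 and -2.54). The part of B cell RNA in the Cd180 values was not tested.

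Cd84 and Cd244 belong to the SLAM family of receptors, which signal through the adaptor SAP and its relatives. CD84 binds another copy of itself on the facing cell, and CD244 (2B4) binds CD48. Both genes lie in the SLAM cluster of mouse chromosome 1, where RefSeq lists Cd244 as Cd244a, and 5 genes start between them, Ly9, Slamf7, Cd48 and Slamf1 among them. None of the 5 is on the panel.

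Cd84 was at 1281, 1087, 1190 and 1335 normalized counts in mice 1 to 4. IL-4c-treated animals had 790, 780 and 739 in mice 5 to 7 and 838, 929, 1089 and 1234 in mice 9 to 12. The Rα+/+ groups did not overlap, and in the RαTd/Td mice the highest treated value, that of mouse 12, lay inside the PBS range. The log2 fold change was -0.62 in Rα+/+ mice (SE 0.17, adjusted p = 0.0127 from limma) and -0.32 in RαTd/Td mice (SE 0.16, adjusted p = 0.116). Without mouse 12 the second was -0.41 and was called (adjusted p = 0.0298, range over the alternatives 0.0298 to 0.715). In Rα+/+ mice centring on the median gene gave -0.32, and leaving out mouse 1 gave -0.50, and neither was called.

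Cd244 moved the other way in Rα+/+ mice. It was at 306 and 256 in mice 1 and 2 and at 303 and 347 in mice 3 and 4. After IL-4c it was at 542, 403 and 608 in mice 5 to 7 and at 535, 514, 374 and 287 in mice 9 to 12. All 3 treated Rα+/+ mice were above both PBS-treated ones, while mouse 12 fell below both PBS-treated RαTd/Td mice. Limma gave a log2 fold change of 0.86 in Rα+/+ mice (SE 0.27, adjusted p = 0.0261) and 0.35 in RαTd/Td mice (SE 0.26, adjusted p = 0.289), and the difference was -0.51 (SE 0.38, adjusted p = 0.536). The call in Rα+/+ mice was lost without mouse 1, 2, 5 or 7, each with a log2 fold change between 0.74 and 0.99, with no filter on low genes and by the methods' t-test with adjustment. CD244 is best known from natural killer cells. Of 10 natural killer markers listed, 4 were on the panel, and Klrk1, Nkg7 and Gzma were at the floor in every mouse, so the sum of the list is that of Cd244 alone.

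The stretch upstream of the transcription start is shown for 5 antigens, the SLAM pair with opposite directions, Cd38 and Cd180 for their falls in both genotypes, and Cd68 for its rise in RαTd/Td mice. They are RefSeq sequences (GRCm38.p6), 250 bases each up to the base before the start, 5′ to 3′ on the strand of the gene. Cd180 has a pair of annotated starts 11 bases apart, and the window of the upstream one is shown. Capitals mark the AP-1 motif TGACTCA or its reverse complement and the ETS core motif GAGGAA or its reverse complement.

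Cd38, chr5:43868559-43868808, plus strand: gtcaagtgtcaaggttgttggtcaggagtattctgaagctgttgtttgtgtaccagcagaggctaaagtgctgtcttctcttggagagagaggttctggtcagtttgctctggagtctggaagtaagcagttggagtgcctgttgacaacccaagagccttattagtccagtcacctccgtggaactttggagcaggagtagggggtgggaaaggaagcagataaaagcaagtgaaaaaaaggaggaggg

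Cd180, chr13:102693297-102693546, plus strand: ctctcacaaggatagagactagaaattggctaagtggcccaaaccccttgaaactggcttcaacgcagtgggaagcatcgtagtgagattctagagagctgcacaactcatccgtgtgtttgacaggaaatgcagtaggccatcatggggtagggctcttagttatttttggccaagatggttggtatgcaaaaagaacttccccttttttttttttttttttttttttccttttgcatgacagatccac

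Cd244, chr1:171558943-171559192, plus strand: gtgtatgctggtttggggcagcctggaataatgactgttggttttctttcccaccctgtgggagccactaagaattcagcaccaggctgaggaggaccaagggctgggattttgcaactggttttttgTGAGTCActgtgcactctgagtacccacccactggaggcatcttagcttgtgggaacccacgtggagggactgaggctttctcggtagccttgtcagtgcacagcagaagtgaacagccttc

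Cd84, chr1:171839447-171839696, plus strand: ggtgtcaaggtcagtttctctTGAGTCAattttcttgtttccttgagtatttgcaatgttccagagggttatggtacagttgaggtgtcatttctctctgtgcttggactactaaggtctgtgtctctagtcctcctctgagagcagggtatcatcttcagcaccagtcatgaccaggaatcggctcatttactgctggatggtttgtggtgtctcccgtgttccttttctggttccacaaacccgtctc

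Cd68, chr11:69666171-69666420, minus strand: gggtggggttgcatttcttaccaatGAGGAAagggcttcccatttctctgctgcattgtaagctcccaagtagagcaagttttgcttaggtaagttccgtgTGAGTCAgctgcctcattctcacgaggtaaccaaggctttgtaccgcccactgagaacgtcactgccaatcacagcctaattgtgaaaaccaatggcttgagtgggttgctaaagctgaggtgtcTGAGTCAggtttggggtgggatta

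Of the 22 antigens 14 have a window in the RefSeq promoter table, and 10 motifs were searched on both strands of the 250 upstream bases, beside 32851 windows of all genes. The AP-1 motif TGACTCA was in the windows of Cd244, Cd84 and Cd68, at 1, 1 and 2 places, and in 4.46% of all windows. The ETS motif GAGGAA was in those of Cd68, Cd44 and Cd276 and in 23.25% of all, and the longer PU.1 form GAGGAAGT, which contains it, was in none of the 14 and in 2.44% of all. The STAT motif TTCNNNGAA was in none of the 14 and in 7.02% of all. A longer STAT6 motif, searched but not among the 10, had matches upstream of Cd44 and Cd209e. Its share of all windows is not given, so nothing can be read from these matches. Cd44 was at the floor in every mouse, and Cd209e was above it in mouse 10 only. The CCAAT motif was found for Cd180, Cd68 and Cd276 (33.85% of all), the GC box GGGCGG for Cd151, Cd274, Cd276, Cd47 and Cd68 (32.74%), the nuclear receptor motif AGGTCA for Cd84, Cd151 and Cd209e (14.02%) and the E-box CACGTG for Cd244 (6.02%). None of the 14 held the TATA motif TATAAA (12.37% of all) or the extended E-box GTCACGTG, which contains the E-box (1.85%). A match is a description of the letters, and no match says only that these letters are not in this window.

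Cd47 and Cd274 encode ligands that hold back other cells. CD47 binds SIRPα on phagocytes and inhibits engulfment, and CD274 (PD-L1) binds PD-1 on T cells.

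With PBS alone Cd47 stood at 518 (mouse 1) and 467 (mouse 2) normalized counts in Rα+/+ mice and at 675 and 729 in mice 3 and 4. After IL-4c it was at 385, 362 and 385 in mice 5 to 7 and at 493, 455, 474 and 599 in mice 9 to 12. Within each treatment all RαTd/Td mice lay above all Rα+/+ mice, and within each genotype all treated mice lay below the PBS-treated ones. IL-4c changed it by -0.38 log2 units in Rα+/+ mice (SE 0.13, adjusted p = 0.0371 from limma) and -0.48 in RαTd/Td mice (SE 0.13, adjusted p = 0.00994). Centring on the median gene left -0.08 and -0.22, quantile normalization left -0.04 and -0.17, and none of the 4 was called. The call in Rα+/+ mice was lost too without mouse 1, 4, 5, 6 or 7, and that in RαTd/Td mice without mouse 4 (adjusted p = 0.0862) and by the methods' t-test with adjustment. Sirpa, the gene for its receptor, was at 810 to 998 normalized counts in all 11 mice and was not called in any comparison.

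Cd274 was close to the floor after PBS. It was at 59.5 and 42.0 in mice 1 and 2 and at 58.2 in mouse 4. Mouse 3 was at the floor, and the lowest value seen above the floor in that lane was 56.1. After IL-4c it was at 52.7, 93.4 and 82.4 in mice 5 to 7 and at 123, 106, 92.7 and 120 in mice 9 to 12. All 4 treated RαTd/Td mice were above all PBS-treated mice, and mouse 5 lay within the PBS range of the Rα+/+ group. The log2 fold change was 1.37 in RαTd/Td mice (SE 0.30, adjusted p = 0.00373 from limma) and 0.56 in Rα+/+ mice (SE 0.31, adjusted p = 0.173). With a single floor of 56.3 for all lanes the first was 0.93 and still called (adjusted p = 0.00293), and without mouse 3 it was 0.91 and not called (adjusted p = 0.0513, range over the alternatives 0.00049 to 0.0513). In Rα+/+ mice centring gave 0.86 and quantile normalization 0.89, both called. The difference between the genotypes in the response was 0.82 (SE 0.43, adjusted p = 0.395), and with a mouse left out it ran from 0.35 to 1.28. Pdcd1, the gene for PD-1, was at the floor in every mouse, and Pdcd1lg2, which encodes its other ligand, was above the floor in mouse 6 (36.4) and in no other mouse.

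Cd1d1 encodes the molecule that presents lipid antigens to natural killer T cells. PBS-treated mice 1 to 4 had 151, 137, 207 and 182 normalized counts. Treatment brought it to 58.4, 52.2 and 83.5 in mice 5 to 7 and to 86.6, 69.2, 71.1 and 49.3 in mice 9 to 12. All treated mice lay below all PBS-treated mice. Cd1d1 had a log2 fold change of -1.17 in Rα+/+ mice (SE 0.25, adjusted p = 0.00378 from limma) and -1.51 in RαTd/Td mice (SE 0.23, adjusted p = 0.000607), the largest fall among the detected antigens of the RαTd/Td mice. In Rα+/+ mice quantile normalization gave -0.80, just short of a call (adjusted p = 0.0549, range over the alternatives 0.00122 to 0.0578). Its close relative Cd1d2 was at the floor in every mouse. Whether the Cd1d1 and Cd1d2 probes cross-hybridise could not be checked, because the probe positions of the panel were not at hand.

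Cd99, a glycoprotein of leukocytes and endothelium that takes part in transmigration, was at 280, 256, 262 and 218 normalized counts in mice 1 to 4. In treated mice it was at 185, 142 and 155 in mice 5 to 7 and at 163, 199, 168 and 202 in mice 9 to 12. The treated mice were below the PBS-treated mice in both genotypes. Its log2 fold change was -0.74 in Rα+/+ mice (SE 0.16, adjusted p = 0.00397 from limma) and -0.39 in RαTd/Td mice (SE 0.15, adjusted p = 0.0526). The second was called without mouse 12 (log2 fold change -0.44, adjusted p = 0.0367), without mouse 5, with 10 added in place of 1 and with a single floor, and its adjusted p ran from 0.0367 to 0.564 over the alternatives.

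The 2 remaining antigens were not called in any comparison. Cd151, a tetraspanin that partners laminin-binding integrins, was between 107 and 182 normalized counts in the 11 mice, a 1.70-fold range and the second narrowest of the 11. Its log2 fold changes with IL-4c were -0.15 and -0.19, and they turned positive under centring and quantile normalization. Cd209e, one of the mouse relatives of the lectin DC-SIGN, was above the floor in mouse 10 at 38.2 normalized counts and at the floor in the other 10 mice, so it has no fold change to speak of.

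**Figure D3:**
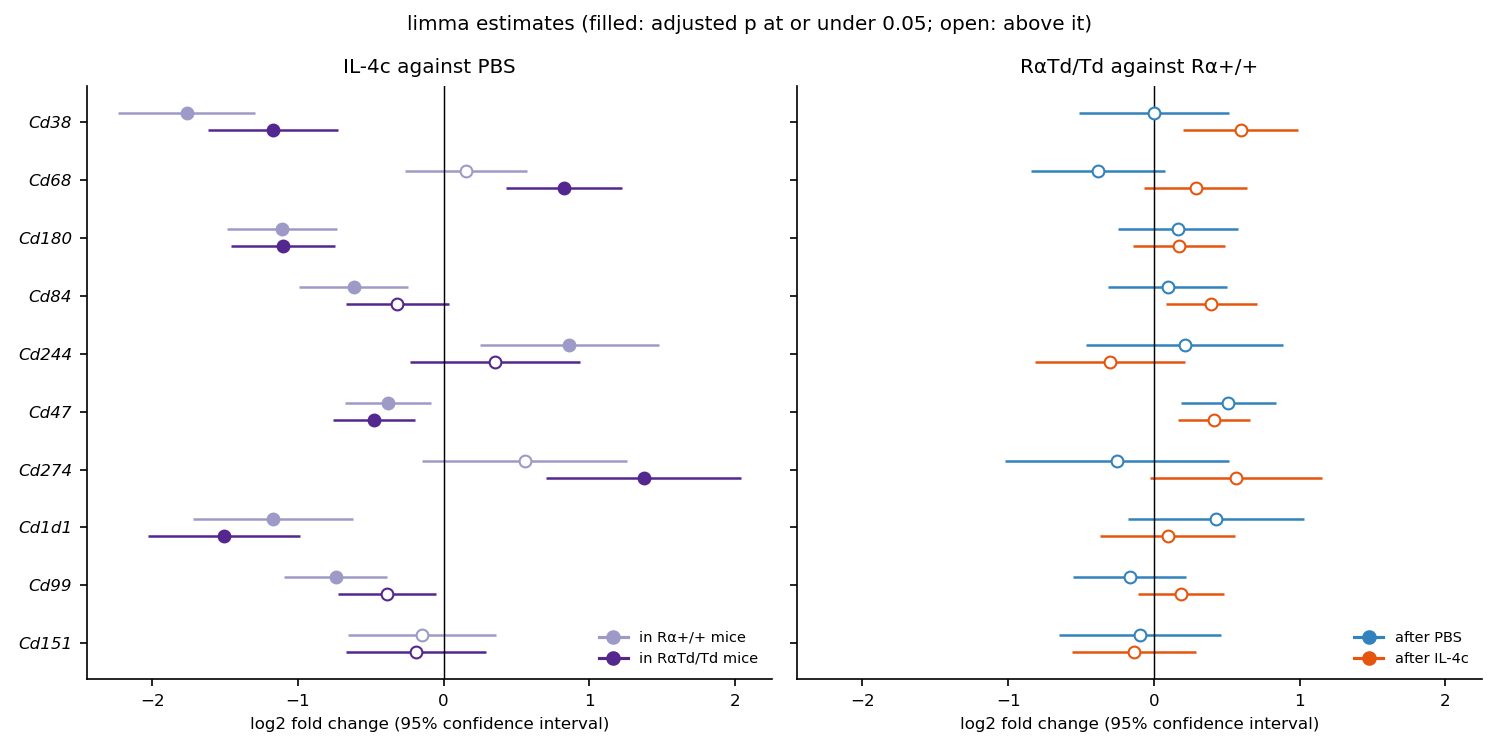
Log2 fold changes from limma (x axis) with 95% confidence intervals for 10 CD antigen genes (y axis). The left panel shows IL-4c against PBS in Rα+/+ (light) and RαTd/Td (dark) mice, the right panel RαTd/Td against Rα+/+ mice after PBS (blue) and after IL-4c (orange), with filled points called and open points not called. No point in the right panel is filled.

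Between the genotypes no antigen was called. After PBS limma called 0 of the 11, against 9.66% of all genes tested, with 1 at an unadjusted p of at most 0.05, beside 102 of all 445 genes. The methods' t-test gave 1 unadjusted, beside 54 of all genes, and 0 after adjustment. Over all genes the calls were 36 higher and 7 lower, 16 and 10 with median centring and 15 and 8 with quantile normalization. They were 1 higher and 2 lower with only these groups in the fit, and 2 in all by the methods' t-test with adjustment. Leaving out 1 PBS-treated mouse moved them both ways, to more calls without mouse 1 and to fewer without mouse 2, 3 or 4. The median log2 fold change of the 11 was 0.00, beside 0.10 over all genes. The antigen with the lowest p was Cd47 (log2 fold change 0.51, SE 0.14, adjusted p = 0.0574 from limma). It was called with a single floor (adjusted p = 0.0403), without mouse 12 (adjusted p = 0.0260) and without mouse 1, which leaves 1 PBS-treated Rα+/+ mouse. Over the alternatives its log2 fold change ran from 0.30 to 0.58, and with a mouse left out from 0.44 to 0.58. Its adjusted p ran from 0.0260 to 0.321 over the alternatives.

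After IL-4c limma called 0 of the 11, against 2.70% of all genes tested, with 3 at an unadjusted p of at most 0.05, beside 97 of all 445 genes. The methods' t-test also gave 3 unadjusted, beside 73 of all genes, and 0 after adjustment. They were Cd38 (log2 fold change 0.60, SE 0.18, adjusted p = 0.102 from limma), Cd47 (0.41, SE 0.11, adjusted p = 0.102) and Cd84 (0.39, SE 0.14, adjusted p = 0.144), each higher in RαTd/Td mice. The RαTd/Td values of Cd47 and Cd84 did not overlap with the Rα+/+ values, and those of Cd38 did. With quantile normalization the log2 fold changes were 0.40 for Cd38, 0.17 for Cd47 and 0.15 for Cd84, and 1 antigen had an unadjusted p of at most 0.05 (2 with median centring). The median log2 fold change of the 11 was 0.19, beside 0.12 over all genes, where 7 were called higher and 5 lower (3 and 5 with median centring, 5 and 7 with quantile normalization). These calls were 21 higher and 6 lower without mouse 9, 0 and 5 without mouse 12, and 0 and 2 with only these groups in the fit.

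In their response to IL-4c the genotypes did not differ by a called amount for any antigen. Limma called 0 of the 11, against 2.02% of all genes tested. Cd68 alone (1 gene) had an unadjusted p at or under 0.05, beside 69 of all 445 genes. The calls over all genes were 3 higher and 6 lower, 3 and 5 with median centring and 7 and 11 with quantile normalization. Without mouse 6 they were 1 and 2, and without mouse 9 they were 4 and 5. Leaving out a PBS-treated mouse gave more calls without mouse 1 or 3 and fewer without mouse 2 or 4. The methods' t-test was not run for this comparison. A call in 1 genotype and not in the other is therefore not shown to be a difference between them. With 2 PBS-treated mice of each genotype the 95% confidence interval of this difference was wide, from -0.15 to 1.78 for Cd274 and from -1.36 to 0.34 for Cd244.

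CD molecules and partners that carry other symbols were read beside the set from a chosen list, which does not hold all of them. It leaves out, among others, Alcam and Itga5, called higher in both genotypes, and Selp, Il4ra and Il6ra, called lower in both. Of the 34 of the list on the panel 29 were above the floor in at least 1 mouse. After IL-4c limma called 15 of them in Rα+/+ mice (2 higher, 13 lower) and 16 in RαTd/Td mice (2 higher, 14 lower). The calls over all 445 genes were 206 and 231. The median log2 fold changes of the 29 were -0.61 and -0.38. Among the Fc receptors, Fcgr2b, the inhibitory one, had log2 fold changes of 1.30 and 1.49 and Fcgr3 of -1.10 and -0.75. Fcgr1 was at 162 to 220 normalized counts after PBS and, after IL-4c, at the floor in 6 of 7 mice and at 64.3 in mouse 12. The integrin chain Itga4 (-1.39 and -1.18) was called lower, as Csf1r was, whereas Itgam and Ptprc (CD45) were not called. Mrc1 (CD206), a marker of alternative activation, was called higher in RαTd/Td mice (log2 fold change 1.69, adjusted p = 0.0218 from limma) and not in Rα+/+ mice (0.24), and the difference was 1.44 (adjusted p = 0.394). It was at 989 in mouse 12 and between 253 and 444 in mice 9, 10 and 11. Neither genotype comparison had a limma call among the 29, and 3 (PBS) and 7 (IL-4c) had an unadjusted p at or under 0.05, beside 102 and 97 of all 445 genes.

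Mouse 12 stood apart from mice 9 and 10 of the IL-4c-treated RαTd/Td group. Its counts differed from theirs by 136.75 and 129.15 chi-square units per degree of freedom. Mice 11 and 12 differed by 60.54, within the 14.96 to 61.46 of the pairs of that group without mouse 12. Mouse 12 had the highest value of the 4 mice for 6 of the 11 antigens, Cd68, Cd151, Cd84, Cd47, Cd180 and Cd99. It had the lowest for Cd244 and Cd1d1. Among the 29 CD molecules and partners with other symbols it was highest for 13 and lowest for 5. How often it was highest or lowest over all genes was not counted, so these counts show nothing particular to the antigens. Its Cd68 was 1.40 times, and its Cd244 0.61 times, the geometric mean of mice 9, 10 and 11. Without it limma called 8 of the 11 antigens with IL-4c in RαTd/Td mice, Cd84 and Cd99 being added, beside 70 higher and 173 lower of all 439 genes tested then, and Cd68 remained called at 0.71.

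**Figure D4:**
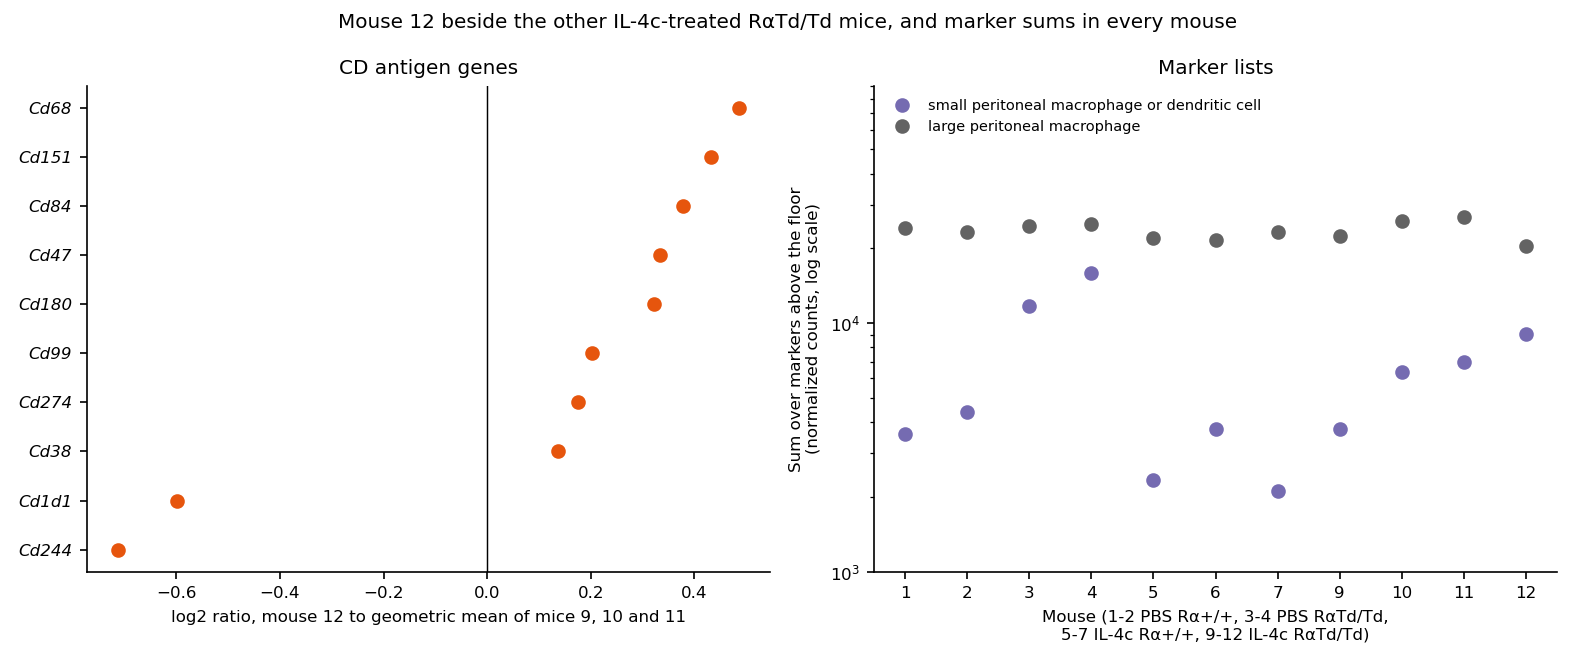
Left, log2 ratio (x axis) of mouse 12 to the geometric mean of mice 9, 10 and 11 for 10 CD antigen genes. Right, normalized counts summed over the markers of 2 lists in each mouse (log y axis). The sum of the small peritoneal macrophage or dendritic cell list was 9064 in mouse 12 and between 3740 and 6964 in the other 3 mice of its group.

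Csf3r, expressed by neutrophils and monocytes, was called lower with IL-4c by limma (log2 fold changes -2.92 and -2.81). In mouse 12 the monocyte receptor Ccr2 was at 464, above all 10 other mice. Of 10 markers of small peritoneal macrophages or dendritic cells 7 were on the panel, with H2-Aa the most abundant and Itgax and Flt3 at the floor. Their sum was 3590, 4398, 11728 and 15919 in mice 1 to 4, 2335, 3739 and 2107 in mice 5 to 7, and 3740, 6361, 6964 and 9064 in mice 9 to 12. All RαTd/Td mice were above all Rα+/+ mice of the same treatment, mouse 9 by under 1 count, an order that H2-Aa and H2-Ab1 shared. Irf4, of the same list, was at 160, 206 and 165 in mice 5 to 7 and at 147, 185, 152 and 157 in mice 9 to 12. H2-Eb1 was lower in mouse 9 (471) than in mouse 6 (605), and Ccr2 was lower in mouse 9 (61.9) than in mice 5 (98.5) and 6 (121). The part of these cells in the antigen values was not tested.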

How the data were processed

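The table analysed covers 11 sorted samples, 1 mouse each, with 754 genes and 14 controls. The authors measured RNA on a NanoString myeloid panel, and the deposited values are signal in counts on a linear scale, normalized to 4 housekeeping genes with low values set to 30. Dividing each column by its factor gave whole counts within 0.1 for values below 1000, and their sum above the floor is the depth. A further IL-4c-treated Rα+/+ mouse was not analysed here. The paper set it aside as an outlier that grouped with the PBS-treated mice by expression. It also had less RELMα and fewer cells in the peritoneum, which the paper puts down to a likely failure of IL-4c delivery. The choice thus rested in part on expression, and its effect on the spread of the Rα+/+ group was not tested.

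The 445 genes with a mean above 30 entered limma (version 3.58.1, R 4.3.3) as log2(value + 1), each group having its own coefficient, with moderated two-sided tests and Benjamini-Hochberg adjustment over all genes of each of 5 comparisons. The fit was tested on simulated data. The alternatives were no filter, values above 30 in every mouse, median centring, quantile normalization, 10 added in place of 1, a single floor of 56.3, trend and robust moderation, only the groups compared, the methods' t-test (unadjusted, then adjusted), and each mouse left out in turn. Each antigen above the floor was named, with every mouse given where it was called, and a selection of the other CD molecules and partners was named. The sum of 1 marker list is not reported here. The members and lists were chosen with earlier results of these data known. Promoters and names come from RefSeq (GRCm38.p6), where 21 of the 22 symbols matched directly and 1 as a synonym. The windows to print and the motifs were chosen with the windows in view, and searches for 3 longer motifs (STAT6, with matches upstream of Cd44 and Cd209e, and IRF and NF-kB, with none) were also made and left out. P-values measure the spread between mice, and the 2 PBS-treated mice per genotype limit the precision, as the floor and the depth do for low genes.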

Additional observations from a re-analysis of the deposited data

Results flagged for a closer look

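Cd209e in the IL-4c-treated RαTd/Td mice was singled out because 1 sample lay far from the others. Mouse 10 was at 38.2 normalized counts, and mice 9, 11 and 12 were at the floor of 30, so its gap to the others made up the whole range of the group (ratio 1). The value in mouse 10 corresponds to 37 counts, and the lowest value that this lane showed above the floor was 32.04, so the flag rests on a value just over the floor. All 11 antigens above the floor were looked at in this group, the only one with 4 mice. With the other 3 mice at 30 the ratio is 1 for any value above the floor, so it carries no chance rate. No antigen had a called difference between the genotypes in the response to IL-4c.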

How the results depend on the processing

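Of 272 alternative values of the 13 called results, 250 kept the call, 22 lost it and 0 changed sign, and 7 of the 13 were called under every alternative. Of 830 values of the 42 results not called, 14 became calls and 37 changed sign. The number of antigens called with IL-4c was 7 in Rα+/+ mice (4 to 7 with a mouse left out, 4 without mouse 1) and 6 in RαTd/Td mice (5 to 8). Between the genotypes after PBS it was 0, and 1 with a single floor, 1 with the methods' t-test unadjusted and 0 to 1 with a mouse left out. After IL-4c it was 0, and 3 with the unadjusted t-test. Log2 fold changes that changed sign are given for median centring and then quantile normalization. With IL-4c, Cd151 became 0.15 and 0.16 in Rα+/+ mice (-0.36 to 0.062 with a mouse left out) and 0.069 and 0.067 in RαTd/Td mice (-0.46 to 0.079). Between the genotypes after PBS, Cd38 became -0.15 and -0.085 (-0.078 to 0.080 with a mouse left out) and Cd84 -0.052 and -0.031 (-0.024 to 0.21), Cd180 became -0.006 with quantile normalization, and with a mouse left out Cd151 ran from -0.36 to 0.18 and Cd274 from -0.72 to 0.22. After IL-4c, Cd180 became -0.015 and -0.027, Cd1d1 -0.092 and -0.10 (-0.043 to 0.29 with a mouse left out), and Cd209e -0.10 with median centring. In the difference between the responses, Cd180 became -0.033 and -0.021 (-0.15 to 0.16 with a mouse left out), and Cd151 ran from -0.31 to 0.23. The cause was not tested. Where leaving out a mouse left 1 PBS-treated sample, the p-values assume that it varies like the other groups.

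Limits. Each genotype had 2 PBS-treated mice, and the analysis rests on 11 mice with 1 sample each. No paired analysis was possible because each mouse gave 1 sample. Values at the floor hide differences below 30 to 56 normalized counts, which affects Cd274 and Cd209e most. The panel was chosen for myeloid genes, so the scale of the comparison depends on which genes it holds. RNA was measured in sorted cells as a bulk, and surface protein was not measured here. The loss of RELMα was in all cells, so an effect of the macrophages' own RELMα cannot be told apart from that of other cells.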
